A study of Homo sapiens with 43 samples.

Results

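The epidermal differentiation complex, taken here as chr1:151950001-153610000 of hg19, held 552 of the 650700 peaks of 27 chromatin immunoprecipitation sequencing (ChIP-seq) lists from lung squamous cell carcinoma cell lines. All peaks that overlapped this interval of 1.66 Mb were taken, without regard to their height. They comprised 461 of 575048 peaks of H3K27ac, 76 of 66376 peaks of Sox2, 11 of 3159 peaks of p63 and 4 of 6117 peaks of Brn2.

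H3K27ac marks active promoters and enhancers. Sox2 is a transcription factor that keeps stem cells undifferentiated, p63 governs the identity of basal epithelial cells, and Brn2 (gene POU3F2) is best known from neurons. The lines were unmodified except for LK2_GFP and LK2_DNp63, derivatives of LK2 that are named after a fluorescent protein and a p63 isoform. The labels do not say how these were made, whether they are clones, or for how long p63 was present. All lines grew in RPMI-1640 with serum, and no treatment is listed. The 13 unmodified lines were grouped by the ChIP experiments listed for them. Set A held LK2 and NCI-H520, with Sox2 and Brn2 ChIP. Set B held HCC95, KNS62 and HCC2814, with Sox2 and no Brn2 ChIP. Set C held Calu-1, EBC-1, HARA, HCC2279, HCC2450, LC-1/SQSF, NCI-H2887 and SQ-1, with H3K27ac ChIP alone. The sets therefore record what was assayed, not which factors a line expresses. LK2 and NCI-H520 had 2 H3K27ac libraries each, and every other list was 1 library. Separate cultures are not stated for any library, so a p-value here reflects the spread among these samples alone, and that spread may be technical. The lists hold no read counts, and depth is unknown. Markers of the labelled cell type were not checked, because genes were not placed on the files' build.

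The complex is a dense cluster of genes that are switched on as keratinocytes leave the basal layer. Its products build the cornified envelope, a sheath of cross-linked protein beneath the cell membrane, and p63 is known to act in this programme. In the lung these genes are known from squamous metaplasia and squamous carcinoma. RefSeq (GRCh38.p14) lists 63 protein-coding genes in the cluster. From the low-coordinate end the order runs from S100A10 and S100A11, which encode calcium-binding S100 proteins, to the 7 fused-type genes such as TCHH and FLG, whose products bundle keratin filaments. The 19 late cornified envelope genes come next. They are followed by IVL, which encodes the envelope precursor involucrin, by the 11 small proline-rich genes, whose products are cross-linked into the envelope, and by LORICRIN, a major envelope protein. S100A9, S100A12, S100A8, S100A7A and S100A7 lie beyond these, and S100A6 through S100A2 to S100A1 close the cluster. Peaks were not assigned to single genes, so this order serves only as orientation.

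Promoter sequences of 4 genes are printed to show the regulatory DNA of the gene families along the cluster. They are the 250 bases upstream of the RefSeq start on GRCh38.p14, on the gene's own strand, and capitals mark TGANTCA, the letters bound by AP-1 factors. S100A11 (chr1:152037005-152037254, minus strand) stands for the low-coordinate end and holds no match. IVL (chr1:152908296-152908545, plus strand) and SPRR1B (chr1:153030953-153031202, plus strand) stand for the envelope genes, with 1 and 2 matches. S100A2 (chr1:153565845-153566094, minus strand) stands for the high-coordinate end, with 1 match in the first of its RefSeq entries. Its other entry and those of S100A14 and S100A16 at the same end held no match.
S100A11: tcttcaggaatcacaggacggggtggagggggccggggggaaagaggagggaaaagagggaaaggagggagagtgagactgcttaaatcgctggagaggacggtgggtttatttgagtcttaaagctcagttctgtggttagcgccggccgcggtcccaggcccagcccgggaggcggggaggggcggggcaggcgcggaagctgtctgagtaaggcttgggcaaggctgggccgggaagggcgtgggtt
IVL: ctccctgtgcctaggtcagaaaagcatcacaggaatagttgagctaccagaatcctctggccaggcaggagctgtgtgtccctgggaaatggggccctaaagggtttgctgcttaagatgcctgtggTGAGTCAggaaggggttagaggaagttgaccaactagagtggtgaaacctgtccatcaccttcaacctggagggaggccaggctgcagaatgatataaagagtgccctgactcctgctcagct
SPRR1B: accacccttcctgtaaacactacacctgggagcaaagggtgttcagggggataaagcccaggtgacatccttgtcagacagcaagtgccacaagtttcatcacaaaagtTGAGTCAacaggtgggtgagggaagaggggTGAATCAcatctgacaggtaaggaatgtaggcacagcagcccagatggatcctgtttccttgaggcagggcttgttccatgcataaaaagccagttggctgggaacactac
S100A2: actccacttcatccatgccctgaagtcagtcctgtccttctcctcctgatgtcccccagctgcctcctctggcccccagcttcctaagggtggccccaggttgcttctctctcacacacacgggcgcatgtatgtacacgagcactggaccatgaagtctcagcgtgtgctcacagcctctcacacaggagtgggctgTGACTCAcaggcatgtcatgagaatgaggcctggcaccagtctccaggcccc

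Promoter entries were found for 59 of the 63 genes, 67 entries in all. TGANTCA, read on both strands, occurred in 20 of the 67 (29.9%), against 6.57% of all 35116 RefSeq promoters of the same length. The matches were uneven between families. They fell in 6 of 7 fused-type promoters, 6 of 9 small proline-rich promoters, 4 of 23 S100 entries and 4 of 9 of the remaining entries, and in 0 of 19 late cornified envelope promoters. The letters ACAATG and ACAAAG, which SOX factors can bind, occurred in 7.46% and 10.4% of the entries, against 9.29% and 13.7% of all promoters. A pair of CATG cores with 6 bases of any kind between them, part of the recognition sequence of the p53 family and the same on both strands, occurred in 0 of the 67 and in 0.296% of all promoters. A match describes the letters in the window and is not a binding site, and the hg19 peaks below were not laid over these GRCh38.p14 sequences.

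H3K27ac was concentrated at the ends of the complex in every line. It was measured as the length covered by peaks, in steps of 50 kb, and scaled so that every library covered the same total of 53.04 Mb. The highest mean over the 13 lines was in the step chr1:153500001-153550000, at 15.1 kb, where every line had a peak. HCC2279 was lowest there at 7.80 kb and HCC2814 highest at 19.5 kb. The steps chr1:151950001-152000000 and chr1:152000001-152050000 followed, with means of 9.83 and 7.29 kb. NCI-H520 alone had no peak in the first of them, and all 13 lines had one in the second. The next steps by mean were chr1:153550001-153600000 (6.63 kb, 13 lines with a peak), chr1:153450001-153500000 (3.19 kb, 10 lines) and chr1:152100001-152150000 (2.29 kb, 9 lines). Of the 33 full steps, 8 held no H3K27ac in any unmodified line, and 4 of those lay side by side at chr1:152500001-152700000. The remaining 4 were chr1:152750001-152800000, chr1:153150001-153200000 and the pair at chr1:153350001-153450000. The map of H3K27ac along the complex shows these blank stretches between the filled ends.

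**Figure D1:**
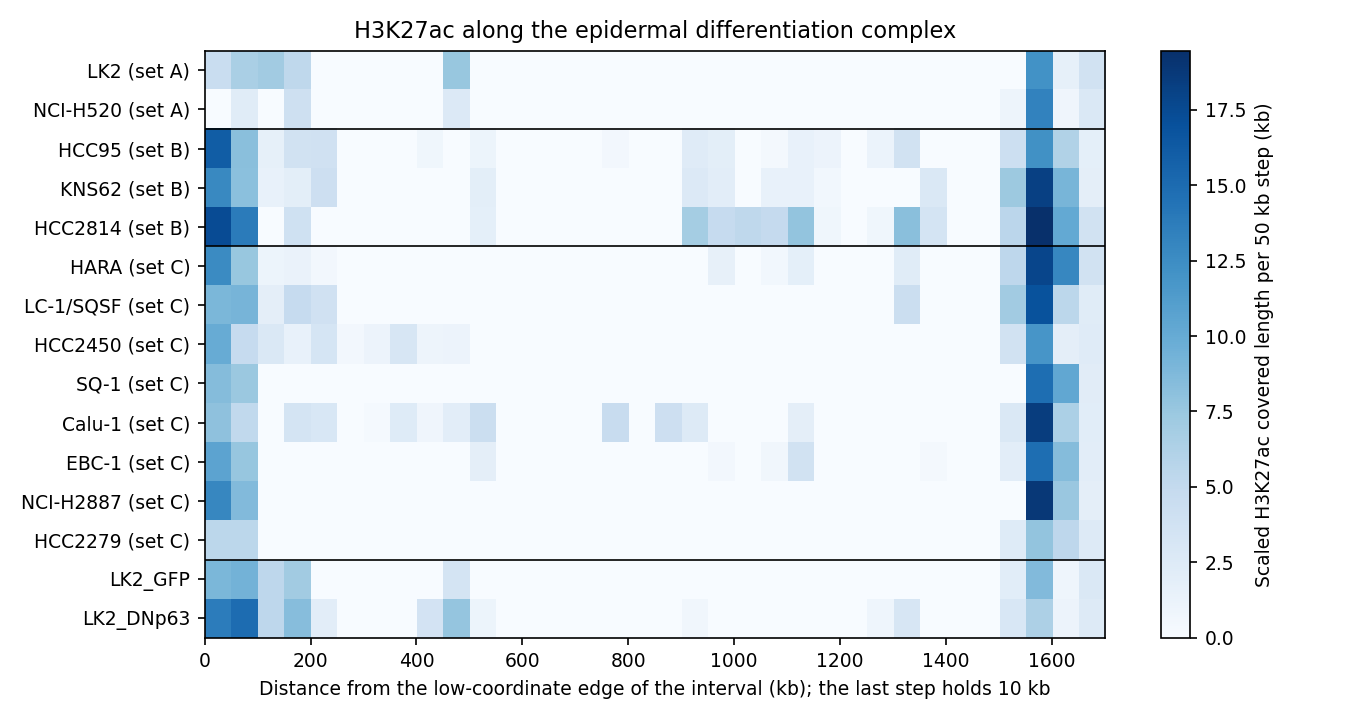
Scaled H3K27ac covered length (kb, colour) in steps of 50 kb along the complex (x axis, distance from the low-coordinate edge in kb) for the 13 unmodified lines and LK2_GFP and LK2_DNp63 (rows; horizontal rules divide the sets; the last step holds 10 kb). The ends are filled in nearly every row, and 8 full steps are blank in all 13 unmodified lines.

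The pattern was summed over 3 stretches, with edges chosen after the steps were seen and without a test. The low-coordinate end, chr1:151950001-152200000, held 28.4 to 35.1 kb in set B, a median of 20.6 kb in set C (10.8 to 28.5 kb) and 6.22 and 23.4 kb in NCI-H520 and LK2. The libraries of NCI-H520 differed there, at 10.7 and 1.75 kb. The high-coordinate end, chr1:153450001-153610000, held 24.3 to 38.8 kb in set B, a median of 27.7 kb in set C (18.1 to 39.9 kb), 17.4 kb in LK2 and 17.7 kb in NCI-H520. Both set A lines, as means of their libraries, lay under all 11 other lines at the high-coordinate end. The libraries of NCI-H520 held 17.1 and 18.4 kb there, the latter above HCC2279 at 18.1 kb. The middle stretch, chr1:152200001-153450000, varied most between the lines. HCC2814 held 44.5 kb there, HCC95 14.5 kb and KNS62 12.97 kb. In set C, Calu-1 held 22.8 kb, HARA, LC-1/SQSF, HCC2450 and EBC-1 held 4.33 to 7.13 kb, and SQ-1, NCI-H2887 and HCC2279 held none. LK2 and NCI-H520 held 7.53 and 2.61 kb, the latter from libraries with 4.41 and 0.801 kb. Calu-1 thus lay among the set B lines, and the sets overlapped. Unscaled, the middle held 26.5 kb in HCC2814 and 31.4 kb in Calu-1, so HCC2814 led only after scaling. The shares of the complex's acetylation that lay in the middle were 37.6% in HCC2814, 31.6% in Calu-1 and 20.0% in HCC95. The plot of the stretches shows both ends present in all lines and the middle present in 10 of the 13.

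**Figure D2:**
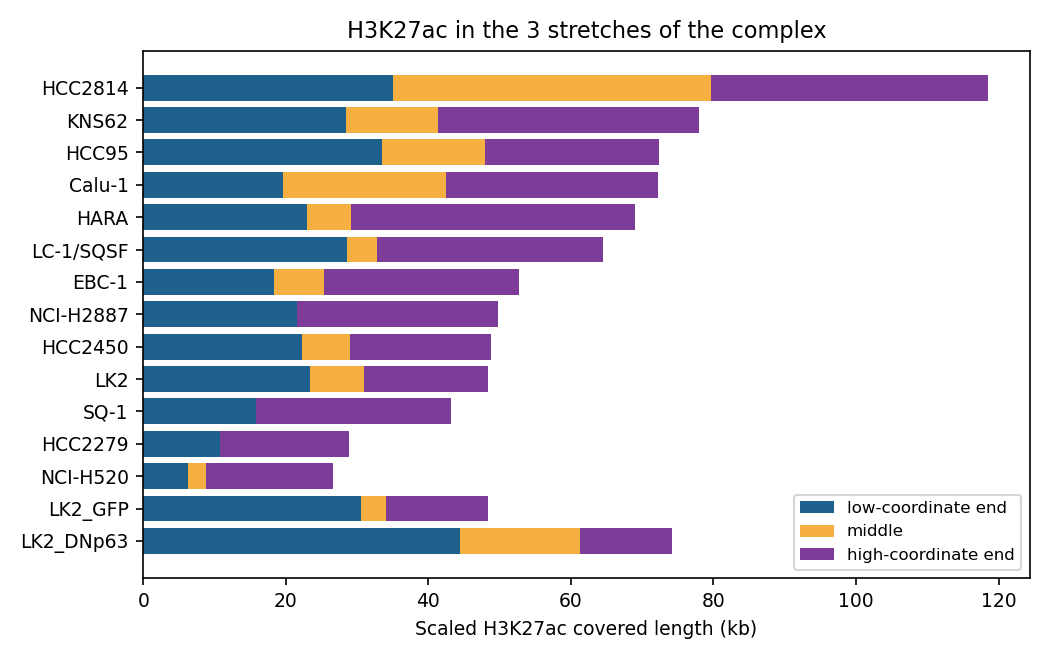
Scaled H3K27ac covered length (kb, x axis) in the low-coordinate end, the middle and the high-coordinate end of the complex, stacked for each line (y axis, 13 unmodified lines by total, then LK2_GFP and LK2_DNp63). The middle runs from none in SQ-1, NCI-H2887 and HCC2279 to 44.5 kb in HCC2814.

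The whole complex held more H3K27ac in set B than in set C. The scaled lengths were 118.5 kb in HCC2814, 77.9 kb in KNS62 and 72.3 kb in HCC95. In set C they were 72.3 kb in Calu-1, 69.0 kb in HARA, 64.5 kb in LC-1/SQSF, 52.7 kb in EBC-1, 49.8 kb in NCI-H2887, 48.8 kb in HCC2450, 43.1 kb in SQ-1 and 28.9 kb in HCC2279. The lowest set B line and the highest set C line therefore had nearly the same length. LK2 held 43.9 and 52.7 kb in its libraries and NCI-H520 32.2 and 21.0 kb. Set B averaged 89.6 ± 25.2 kb (SD, n = 3) and set C 53.6 ± 14.5 kb (SD, n = 8), a difference of 36.0 kb with an adjusted p of 0.0182 (two-sided exact permutation test over lines, Benjamini-Hochberg adjustment over 3 set comparisons), the smallest this design allows. Some alternatives lowered the difference and lost the call. Without HCC2814, whose list covered the smallest total of the set, the difference was 21.5 kb with an adjusted exact p of 0.233. Unscaled lengths differed by 21.3 kb with an adjusted exact p of 0.206. On that scale HCC2814 was the lowest of set B, at 70.6 kb. It lay under Calu-1 (99.4 kb), LC-1/SQSF (84.3 kb) and HARA (79.3 kb) of set C. Without the first and last 100 kb of the interval, the scaled difference between the sets was 24.97 kb with an adjusted exact p of 0.0545. Without HCC95 or KNS62 the scaled difference was larger, 44.6 or 41.8 kb, each with an adjusted exact p of 0.0667. With 2 lines against 8 the unadjusted p cannot go under 0.0222, and the adjusted p ran from 0.0182 to 0.233 over all alternatives.

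Set A averaged 37.4 ± 15.4 kb (SD, n = 2), 52.1 kb under set B and 16.2 kb under set C. Neither difference passed the exact permutation test over lines. The adjusted p was 0.15 against set B, where 2 lines against 3 cannot go lower than an unadjusted p of 0.1, and 0.156 against set C. Without the first and last 100 kb of the interval, set A was 1.35 kb above set C (adjusted exact p of 0.889), and its difference from set B was -23.6 kb (adjusted exact p of 0.15). In bulk chromatin a peak carried by fewer cells and a smaller peak in all cells cannot be told apart.

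**Figure D3:**
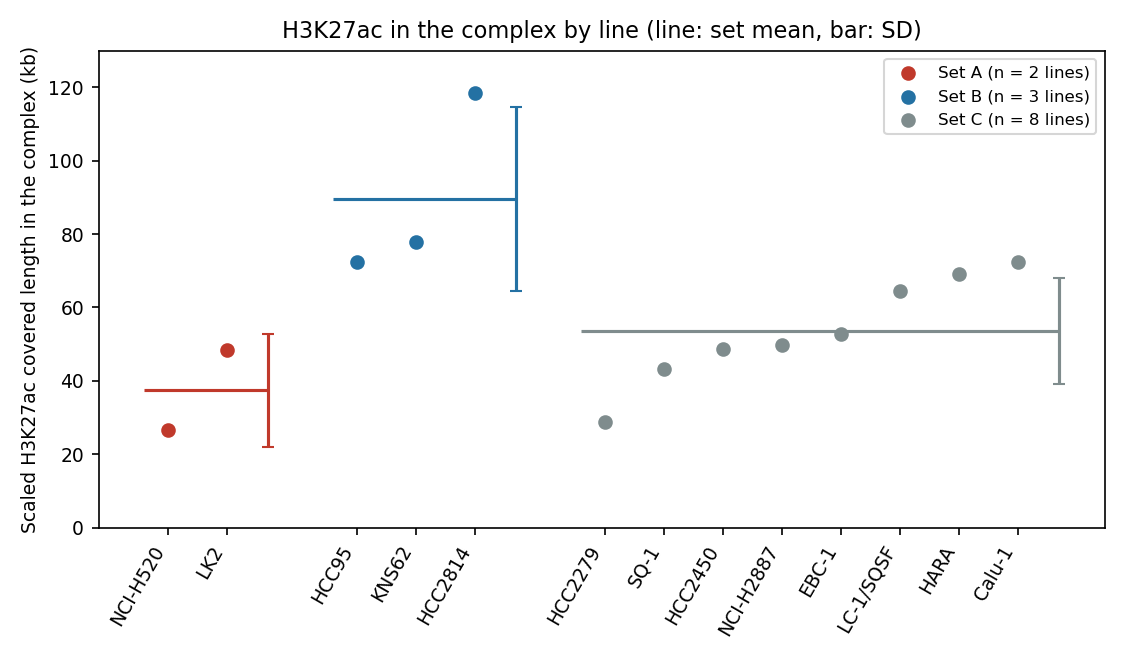
Scaled H3K27ac covered length in the whole complex (kb, y axis) for each unmodified line (points, x axis), with the mean of each set as a horizontal line and its SD as a bar. HCC2814 stands at 118.5 kb, and HCC95 and Calu-1 meet at 72.3 kb.

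Single steps were tested with limma over all 9148 steps of the genome with a mean of at least 2000 bp, and 6 of the 33 steps of the complex entered the test. Against set B, 2 of the 6 were lower in set A (adjusted p under 0.05), and 8.57% of all steps were called in either direction. Against set C the same 2 steps were lower in set A, with 12.6% of all steps called. Between set B and set C, 0 of the 6 passed, 0 had an unadjusted p under 0.05, and 0% of all steps were called. All 6 lay in the low- or high-coordinate end, so no step of the middle stretch was tested. With no filter, 25 steps entered, and 7 had an unadjusted limma p under 0.05 between sets B and C. All 7 lay in the middle and were higher in set B. Of these, 1 was called, chr1:153100001-153150000 (log2 difference of 0.83, limma, adjusted p = 0.0457), with 0.0908% of all steps called. It held 0.558 to 1.10 kb in set B and none in the other lines. The counts of 2 changed with single lines, scaling, filter, pseudocount and peak number, and on a moved grid that covered less of the complex. With no filter, 6 of the 25 steps were called against set B, 5 lower and 1 higher in set A, with 4.74% of all steps called. Against set C 3 were called, 2 lower and 1 higher, with 5.76% of all. Over the genome these calls leaned the other way. There 1303 steps were higher and 525 lower in set A against set B, and 1710 and 511 against set C. The lower steps of the complex against set B included chr1:152850001-152900000, chr1:152900001-152950000 and chr1:153100001-153150000 in the middle, where neither set A line had a peak. Their log2 differences were -2.19, -1.90 and -0.83 (limma, adjusted p = 0.0491, 0.0475 and 0.0135). The higher step of the complex was chr1:152400001-152450000 in both comparisons, with log2 differences of 2.47 and 2.14 (limma, adjusted p = 0.0219 and 0.0176). It held 5.34 and 9.73 kb in the LK2 libraries and 4.41 and 0.801 kb in those of NCI-H520. With a pseudocount of 5000 bp, 1 step was called in each comparison (7.65% and 9.30% of all steps). With equal numbers of top peaks, 2 were called against set B (4.30%) and 1 against set C (5.99%). Against set B, chr1:152000001-152050000 there took the place of chr1:153550001-153600000 (limma, adjusted p = 0.0288 and 0.111). Unscaled, 3 were called in each comparison, all lower in set A (4.52% and 10.7%). The third was chr1:152000001-152050000 (limma, adjusted p = 0.0168 and 0.011, against 0.0908 and 0.214 in the main fit). Without NCI-H520 both called steps had smaller log2 differences, given with each step below. With the grid moved by 25 kb, 4 steps of the complex entered the test. Of these, 1 was called against set B (7.92% of all steps) and 0 against set C (12.4%). The steps counted on that grid covered only chr1:151975001-153575000, so parts of both called steps fell outside them. Its counts are therefore not comparable with those of the main grid. Against set B, 1 was called without KNS62 or without HCC2814 (5.90% and 5.64% of all steps). Against set C, 3 were called without LC-1/SQSF (17.2% of all steps). The third of these was chr1:152100001-152150000, higher in set A (limma, adjusted p = 0.0481). With LK2 or NCI-H520 left out, set A is 1 line, which limma assumes to vary like the other lines.

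The first called step, chr1:151950001-152000000, lies at the low-coordinate end, where the RefSeq order begins with S100A10. It held 0 kb in NCI-H520 and 4.49 kb in LK2, against 16.1 kb in HCC95, 12.8 kb in KNS62 and 17.4 kb in HCC2814. Set C ran from 5.44 to 12.97 kb with a median of 9.42 kb, so set A lay under every other line. The log2 difference of scaled length + 1000 bp was -2.80 ± 0.54 (SE) against set B (limma, adjusted p = 0.0055) and -2.14 ± 0.47 against set C (adjusted p = 0.00845). Without NCI-H520 the differences were -1.57 and -0.92 and the call was lost, with limma adjusted p of 0.0961 and 0.249. The call was kept in each of the other alternatives run on this grid.

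The second called step, chr1:153550001-153600000, held 0.803 kb in NCI-H520 and 1.60 kb in LK2. Set B held 6.14, 9.10 and 10.2 kb, and set C ran from 1.84 kb in HCC2450 to 12.98 kb in HARA. The log2 difference was -2.10 ± 0.52 (SE) against set B (limma, adjusted p = 0.0239) and -1.81 ± 0.45 against set C (adjusted p = 0.0182). It missed the threshold in 6 of 15 alternatives against set B and in 4 of 20 against set C, among them the removal of LK2 or of NCI-H520 in both comparisons and of KNS62 or HCC2814 in the first, with limma adjusted p up to 0.23 in both. In the alternatives that lost the call the difference ran from -2.37 without LK2 to -1.84 without NCI-H520 against set B, and from -2.07 to -1.55 against set C. The exception was a pseudocount of 5000 bp, at -1.11 and -0.94.

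The neighbouring step with the most H3K27ac, chr1:153500001-153550000, held 12.1 kb in LK2 and 13.3 kb in NCI-H520. Its log2 difference from set B was -0.34 ± 0.37 (SE; limma, adjusted p = 0.69). In chr1:152100001-152150000 LK2 held 4.25 and 6.32 kb in its libraries, and set B ran from 1.93 to 3.93 kb. NCI-H520 held 7.91 kb in 1 library and none in the other, so its mean of 3.96 kb rests on a single library. In set C, 4 lines had no peak there. The log2 difference of set A from set C was 1.59 ± 0.67 (SE; limma, adjusted p = 0.137).

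Merging the H3K27ac peaks of the 13 lines gave 95 regions in the complex, of 114149 in the genome. Of the 95, 4 were acetylated in all 13 lines, meaning that they overlapped a peak of each by at least 1 bp (4.21%, against 6.64% of all regions). For LK2 and NCI-H520, a peak in either library counted. They were chr1:152017790-152025320, chr1:153504047-153514630, chr1:153533598-153542439 and chr1:153605121-153608450. The second of these, of 10584 bp, was the longest region of the complex. A further 4 regions were acetylated in 12 lines. Those at chr1:151958789-151968952 and chr1:152006050-152010966 lacked only NCI-H520, and those at chr1:153516227-153520263 and chr1:153598527-153600618 each lacked 1 set C line. The region chr1:153579899-153586382, inside the second called step, was acetylated in all 11 lines of sets B and C and in neither set A line. Regions of a single line numbered 45 (47.4%), against 50.7% in the genome.

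The regions of the complex were spread over the sets otherwise than those of the genome. A set B line acetylated 62.1% of the 95, against 39.5% of all regions, and a set A line 15.8%, against 31.7%. HCC95, KNS62 and HCC2814 together acetylated 12 regions that neither set A line did, 12.6% against 3.004% of all. Of these, 3 were acetylated in no line outside set B, of 126 such regions in the genome. They lay at chr1:152852020-152853828, chr1:152858719-152859991 and chr1:153146738-153148135, all in the middle stretch. The reverse class, both set A lines and no other, held 1 region of the complex (1.05%, against 1.84% of all), which covers the Sox2 and Brn2 site at chr1:152419816-152421905 described below. These shares are descriptions of lists of unknown depth and were not tested.

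Sox2 peaks were more frequent in the complex in the set B lists. HCC95 held 18 of 14048 peaks (0.128%, Wilson 95% interval 0.0811 to 0.202), KNS62 13 of 8907 (0.146%, 0.0853 to 0.25) and HCC2814 18 of 7511 (0.24%, 0.152 to 0.379). LK2 held 6 of 7611 (0.0788%, 0.0361 to 0.172) and NCI-H520 5 of 12048 (0.0415%, 0.0177 to 0.0971). The intervals cover counting error only, the interval of LK2 overlaps all of set B, and that of NCI-H520 overlaps HCC95 and KNS62 but not HCC2814. With the 4217 strongest peaks of each list, the counts were 6, 6 and 9 in HCC95, KNS62 and HCC2814, 4 in LK2 and 0 in NCI-H520. The NCI-H520 peaks were weak, none above percentile 50.4 of their list by the authors' score, whereas the strongest peak of each other line stood at percentile 92.6 or above.

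Few Sox2 sites were shared between the sets. The peaks of the 5 lines merged into 40 sites, of which 30 (75%) were of set B lines alone, 8 (20%) of set A lines alone and 2 (5%) of both. In the genome these classes made up 53.6%, 36.8% and 9.65% of 35819 sites. None of the 40 sites was bound in all 5 lines, and only 283 sites of the genome were (0.79%). HCC95, KNS62 and HCC2814 shared 5 sites that neither set A line held, 12.5% against 3.14% of all sites, and both set A lines shared 1 that no set B line held (2.5% against 5.48%). Of the 40 sites, 12 (30%) were acetylated in none of the 13 lines, against 31.5% of all sites, and 5 had their centre in the blank steps.

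Sites bound in at least 3 lines numbered 7, most of them in the low-coordinate end, and their acetylation differed. The positions given here are those after the Sox2 peaks of LK2_GFP and LK2_DNp63 were merged in as well, which widened some sites. At chr1:152018415-152022539, Sox2 was bound in LK2 and all 3 set B lines, Brn2 was bound in LK2, and all 13 lines were acetylated. The HCC95 peak there overlapped neither that of KNS62 nor that of HCC2814. The wider LK2 peak, chr1:152019652-152021548, joined them into 1 site. At chr1:152139345-152143736, Sox2 was bound in LK2, HCC95 and HCC2814, both p63 and Brn2 had a peak, and 9 lines were acetylated. At chr1:151995765-151997962, all 3 set B lines had a Sox2 peak, at percentile 96.4 of the list in HCC95, and set A had none. The 3 set B lines, HARA and LC-1/SQSF were acetylated there. At chr1:152859399-152860180 the Sox2 peaks of set B stood at percentiles 81.2 to 96.4 and only these 3 lines were acetylated. At chr1:152365044-152366415, Sox2 peaks at percentile 96.2 in HCC2814, 92.6 in KNS62 and 4.95 in HCC95 coincided with H3K27ac in none of the 13 lines. The remaining sites were chr1:152155423-152156088, acetylated in 6 lines, and chr1:153499311-153499987, acetylated in the 3 set B lines, HARA and LC-1/SQSF.

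The Brn2 list of LK2 held 4 of its 4819 peaks in the complex, and all 4 overlapped a Sox2 peak of LK2. They lay at chr1:152020468-152021548, chr1:152082286-152083137, chr1:152140335-152140770 and chr1:152420310-152421674, and LK2 was acetylated at each. Over the whole list, 39.9% of Brn2 peaks overlapped Sox2 of LK2 and 52.1% its H3K27ac. NCI-H520 held 0 of 1298 Brn2 peaks, which allows a share of up to 0.231% and so does not exclude the share in LK2 (0.083%). The fourth site was the one place in the complex where LK2 and NCI-H520 shared a Sox2 peak. Of the 13 lines, LK2 and NCI-H520 alone were acetylated over that site, and the step that holds it had 7.53 kb in LK2, 2.61 kb in NCI-H520 and 0 kb in all 3 set B lines. HCC2450 and Calu-1 had 1.07 and 2.02 kb elsewhere in the same step.

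p63 was profiled in LK2_DNp63 alone, and 11 of its 3159 peaks (0.348%, Wilson 95% interval 0.195 to 0.622) lay in the complex. The strongest, chr1:152139906-152141020, ranked 31 of 3159 by the authors' score, and it was the only p63 peak acetylated in LK2 and in NCI-H520. Both LK2 libraries had H3K27ac there, but only 1 of the 2 of NCI-H520. It coincided with Sox2 peaks of LK2, HCC95, HCC2814, LK2_GFP and LK2_DNp63 and with Brn2 of LK2. The peak chr1:151996109-151997116 stood at percentile 79.7 and overlapped the set B Sox2 site named above. The peak chr1:152006459-152008232 overlapped a Sox2 peak of LK2 at percentile 11.2 of its list, and all 11 lines of sets B and C were acetylated there. The peak chr1:153265672-153266411 overlapped a Sox2 peak of HCC2814 and was acetylated in HCC95, HCC2814, HARA and LC-1/SQSF. The peak chr1:152926065-152926599 was acetylated in the 3 set B lines and HARA. At chr1:152391970-152394241, LK2_DNp63 was acetylated and none of the 13 unmodified lines was.

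The other 5 p63 peaks, at chr1:152163442-152164533, chr1:152339502-152340573, chr1:152758384-152758887, chr1:152783396-152784178 and chr1:153465609-153466203, were acetylated in none of the 13 lines, nor in LK2_GFP or LK2_DNp63. In that order they stood at percentiles 83.4, 58.8, 42.8, 27.6 and 62.96 of the p63 list, so peaks above and below its middle were among them. Of the 11 p63 sites, 5 were acetylated in HCC95, HCC2814, HARA and LK2_DNp63, 4 in KNS62 and LC-1/SQSF, 2 in HCC2450, Calu-1 and LK2_GFP, and 1 in each remaining line. Over the whole p63 list, 52.96% were acetylated in HCC95, 55.4% in KNS62, 33.1% in HCC2814, 45.1% in HARA, 47.7% in LK2_DNp63, 29.3% in LK2_GFP and 24.8% in LK2. The count of 5 in LK2_DNp63 therefore lay near the share of its list.

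**Figure D4:**
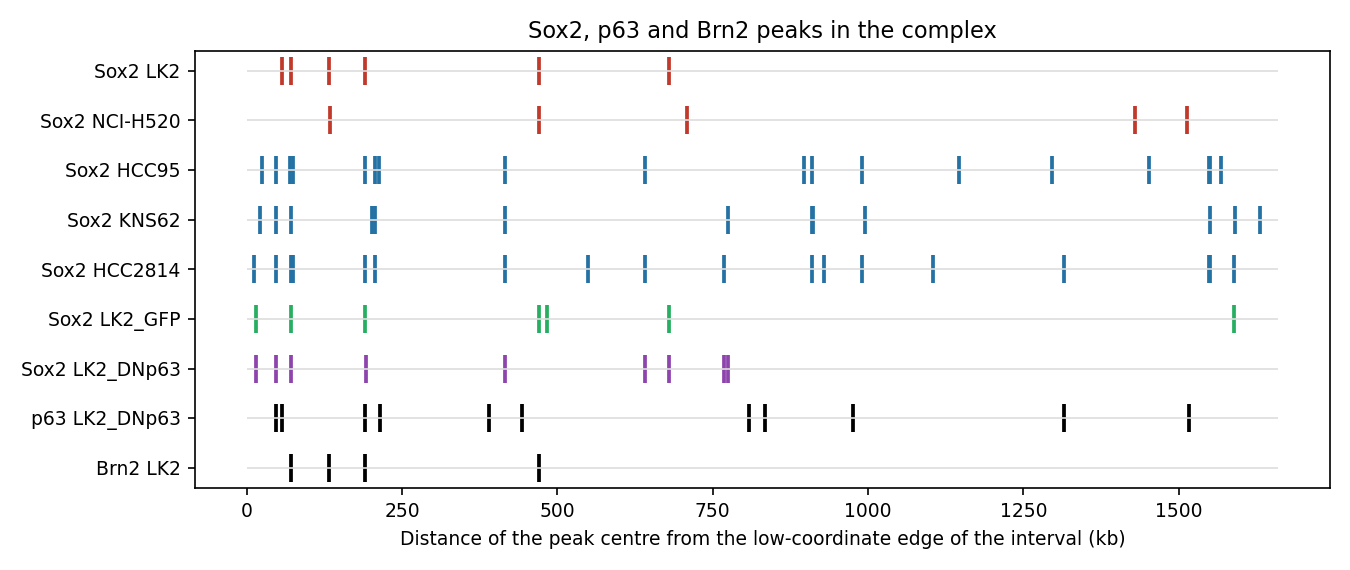
Centres of the Sox2, p63 and Brn2 peaks in the complex (ticks; x axis, distance from the low-coordinate edge in kb), with 1 row for each list (y axis; the Brn2 list of NCI-H520 had none). HCC95 and HCC2814 show 18 Sox2 peaks each, LK2 6 and NCI-H520 5, and p63 shows 11 peaks along the whole interval.

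LK2_DNp63 held more H3K27ac in the complex than LK2_GFP, at 74.2 against 48.4 kb of scaled length, and LK2 held 43.9 and 52.7 kb in its libraries. There was 1 library per arm, so this difference of 25.8 kb has no replicate check and no test. The difference was uneven along the complex. The low-coordinate end held 44.4 kb in LK2_DNp63, 30.6 kb in LK2_GFP and 23.4 kb in LK2, and the middle 16.9, 3.44 and 7.53 kb. The high-coordinate end held 12.97, 14.4 and 17.4 kb, the lowest value being that of LK2_DNp63.

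Of the 14 full steps with a peak in either arm, 4 were at least 2-fold higher in LK2_DNp63 on the scale of scaled length + 1000 bp, and 0 were 2-fold lower. Over all 19251 such steps, 8.51% were higher and 6.37% lower. The median log2 difference was 0.68 over the 14 steps and 0.01 over all. The 4 steps held nothing in LK2_GFP or in LK2. They were chr1:152350001-152400000 with 3.53 kb in LK2_DNp63, chr1:153250001-153300000 with 3.07 kb, chr1:152150001-152200000 with 1.99 kb and chr1:152450001-152500000 with 1.02 kb. Another 2 steps held H3K27ac in LK2_DNp63 alone without passing the 2-fold limit, and 0 held it in LK2_GFP alone. The 2 steps at the low-coordinate edge held 13.8 and 14.9 kb in LK2_DNp63 and 8.94 and 9.28 kb in LK2_GFP. LK2 held 4.49 and 6.59 kb there, so that LK2_GFP also lay above LK2.

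**Figure D5:**
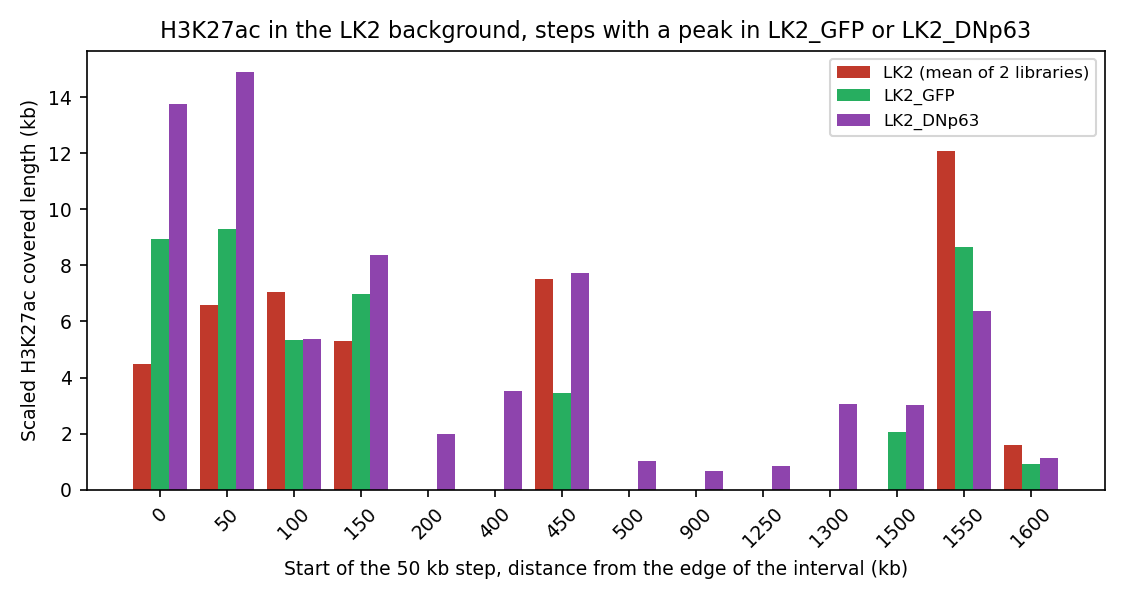
Scaled H3K27ac covered length (kb, y axis) in LK2 (mean of 2 libraries), LK2_GFP and LK2_DNp63 (bars, 1 library each) for the 14 full steps of 50 kb with a peak in LK2_GFP or LK2_DNp63 (x axis, start of the step in kb from the edge). Bars of LK2_DNp63 stand alone in 6 steps, and in the step at 1550 kb LK2_DNp63 is lowest, at 6.38 kb.

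By peaks, 10 of the 21 H3K27ac peaks of LK2_DNp63 in the complex were absent from LK2_GFP, against 26.6% of its whole list, and all 10 were absent from LK2 too. Conversely, 2 of the 19 peaks of LK2_GFP were absent from LK2_DNp63, against 26.5%. A p63 peak lay in 3 of the 10 new peaks, against 10.9% of such peaks in the genome. These were chr1:151995801-151997694, chr1:152392079-152393371 and chr1:153264531-153266649. The first was acetylated in 5 unmodified lines and the third in 4, and the second in none. In all, 6 of the 10 new peaks overlapped H3K27ac of a set B line, against 46.0% of such peaks in the genome, and 4 a set B Sox2 peak, against 16.9%. At an overlap of 50% of the shorter peak the 4 became 3, against 9.55% of such peaks in the genome. The 3 with a p63 peak stayed 3, against 6.14%, and the 6 stayed 6, against 44.3%. The new peaks ran from percentile 4.13 of the list by score to percentile 85.9, the latter at chr1:153264531-153266649.

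Sox2 in LK2_DNp63 had 9 of its 4217 peaks in the complex (0.213%, Wilson 95% interval 0.112 to 0.405), and LK2_GFP had 7 of 12034 (0.0582%, 0.0282 to 0.12), or 4 of its 4217 strongest. Of the 9, 5 were absent from LK2_GFP, against 17.6% of the list, and from LK2. All 5 lay at a Sox2 peak of a set B line, against 36.1% of the 656 such peaks in the genome. They were chr1:151995765-151997962, chr1:152365044-152366415, chr1:152591059-152592208, chr1:152717397-152718484 and chr1:152724523-152725456. The first was also bound by p63 and acetylated in LK2_DNp63, and the other 4 had neither a p63 peak nor H3K27ac of LK2_DNp63. Of the 7 Sox2 peaks of LK2_GFP, 3 were absent from LK2_DNp63, against 70.8% of the list. One of them was the Sox2 and Brn2 site at chr1:152419816-152421905, at percentile 93.8 of the LK2_GFP list and 92.8 of the LK2 list, where LK2_DNp63 remained acetylated with 7.74 kb in the step. The Sox2 peaks in the complex were wide in LK2 and both derivatives, with medians of 1315 bp in LK2, 1372 bp in LK2_DNp63 and 2090 bp in LK2_GFP. They were 390 bp in NCI-H520 and 357.5 to 519 bp in set B. Over the whole Sox2 lists the medians were 686 bp in LK2, 861 bp in LK2_GFP and 1088 bp in LK2_DNp63. The part of peak width in these overlaps was not tested beyond a minimum overlap of 50% of the shorter peak, which left the counts of 5, 3 and 5 unchanged.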

How the data were processed

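H3K27ac, Sox2, p63 and Brn2 peak lists of 27 of 43 samples were used, and the 16 input samples were not analysed. Per the submitters' processing notes, alignment used Bowtie2 and the build hg19, also called GRCh37. Peak names begin with MACS, but neither its version and threshold nor how inputs entered is stated in the labels or files. Each deposited list gives positions and a score per peak, the authors' own value, used here only to rank peaks within a list. Peaks on chromosomes other than 1 to 22 and X were left out (2092 of 652792).

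Covered length was counted per library in 50 kb steps, scaled to equal totals, and averaged over libraries of a line. Steps were tested with limma 3.58.1 (R 4.3.3, mean-variance trend, Benjamini-Hochberg over all steps) on log2(scaled length + 1000 bp), in 1 fit of 13 lines. Totals were compared by exact permutation (numpy 2.4.6), and Wilson intervals came from scipy 1.17.1. The limma script was tested on simulated data. A shared peak overlapped by at least 1 bp. Scaling, pseudocount, filter, grid, peak number and single lines or libraries were varied.

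The interval, lists and tests were chosen with earlier results of these data known. Named were the 6 steps with the highest mean, all called steps, steps past 2-fold, all p63 and Brn2 peaks, Sox2 sites of at least 3 lines, and H3K27ac regions of at least 11 lines or among the 5 longest. Other regions, steps and peaks that the text singles out were chosen after their values were seen. Gene names, order and promoters come from RefSeq (GRCh38.p14).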

Additional observations from a re-analysis of the deposited data

How the results depend on the processing

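For the scaled total of the complex, the difference between sets B and C was 21.3 kb without scaling and 24.97 kb (adjusted exact permutation p = 0.0545) without the first and last 100 kb, and it ranged from 21.5 to 44.6 kb with a line left out. The difference between sets A and C turned to 1.35 kb on the shortened interval (adjusted exact p = 0.889) and ranged from -27.1 to -5.32 kb with a line or library left out. That between sets A and B was -23.6 kb on the shortened interval (adjusted exact p = 0.15) and ranged from -63.0 to -37.7 kb. The number of steps called in the complex by limma, 2 between sets A and B, was 1 with a pseudocount of 5000 bp, 6 without the filter (1 of them higher in set A) and 1 with the grid moved by 25 kb, and 0 to 3 with a line or library left out. Between sets A and C it was 1 with 5000 bp, 0 with the moved grid, 1 with equal numbers of top peaks, and 0 to 3 with a line or library left out. Between sets B and C it was 1 of 25 without the filter, higher in set B, and 0 to 0 with a line left out. The moved grid tested 4 steps of the complex and left out parts of both steps called in the main fit. Its counts are therefore not comparable with the others. In chr1:153500001-153550000 the log2 difference between sets B and C turned to -0.0833 without scaling. With equal numbers of top peaks, the Sox2 counts were 9 in HCC2814, 6 in KNS62, 6 in HCC95, 4 in LK2_GFP and 0 in NCI-H520, and the 1579 strongest p63 peaks held 7 in the complex. These follow from using fewer peaks; for the rest the cause was not tested. Of 110 recomputed values that answer a comparison, 86 kept their direction and side of the threshold or, for a count, stayed within 1.5 times; 5 lost a call, 18 moved and 1 reversed. Of 363 other values, 343 did so, 12 lost a call, 7 gained one and 1 reversed. No paired analysis was possible because library numbers exist only within LK2 and NCI-H520, which belong to the same set and were averaged per line. Unknown depth limits every count of peaks.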

Other observations

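HCC2450 and Calu-1 shared H3K27ac in a part of the complex where all 5 lines with Sox2 ChIP were blank. In chr1:152300001-152350000, within the stretch that follows the low-coordinate end, HCC2450 held 3.06 kb and Calu-1 2.40 kb of scaled length, and the other 11 unmodified lines held none. Calu-1 held a further 4.58 kb in chr1:152700001-152750000, where HCC95 alone also had a peak, with 0.482 kb, and 4.14 kb in chr1:152800001-152850000, where no other unmodified line had any. HCC2814 alone held H3K27ac in chr1:152950001-153000000, at 5.26 kb. These steps were chosen after their values were seen, each line is 1 library, and no test was made.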
